A study of Mus musculus with 12 samples.

Results

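The joining segments of the T cell receptor alpha gene were followed in thymocytes of mice with and without the microRNA pair miR-181a/b-1. Members were taken as every gene row whose symbol is Traj followed by a number. There were 60 such rows among 55335 gene rows, with numbers from 1 to 61 and no row for number 10. All 60 matched the RefSeq table of GRCm38.p6, in which their order along the chromosome follows their number and 9 of them are listed as pseudogenes. Segments 41 to 61 are called proximal here (21 rows), segments 21 to 40 middle (20 rows) and segments 1 to 20 distal (19 rows).

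The alpha chain of the T cell receptor is assembled in double-positive thymocytes, where the RAG recombinase joins a Trav (variable) segment to a Traj (joining) segment, which is then spliced to the constant exon block Trac. Traj segments with high numbers lie nearest the Trav segments and are used first. A cell that has not been positively selected can recombine again, replacing the first joint with one that uses a Traj segment of lower number, so distal segments are reached in later rounds. Joining continues while the cell survives at this stage, and Bcl2l1 (Bcl-xL), which blocks cell death, is known to extend that survival. The unrearranged locus is also transcribed, so RNA reads over a Traj segment need not come from a joined receptor gene.

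The study profiled total RNA by RNA-seq and ribosome-protected fragments (footprints) by ribosome footprinting in thymocytes of mice 6 weeks of age kept under SPF conditions. The groups were WT and miR-181a/b-1 KO mice, with 3 libraries for each genotype in each assay and 12 libraries in all. All thymocytes were strained and placed in cycloheximide, which stalls ribosomes on the mRNA they translate. The labels give neither the strain of the mice nor how the knockout was made, and do not say which RNA-seq and footprint libraries share a mouse. The deleted genes encode the microRNAs below, shown because their loss is the only difference between the genotypes that the labels name; the capitals mark the seed, bases 2 to 8, which is the same in both. The sequences are from RefSeq (GRCm38.p6), in which Mir181a-1 gives the first from chr1:137966468-137966490 and Mir181b-1 the second from chr1:137966650-137966673, both on the plus strand.
mmu-miR-181a-5p: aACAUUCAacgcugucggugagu
mmu-miR-181b-5p: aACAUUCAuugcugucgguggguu

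In footprints, Mir181a-1 averaged 148 ± 16.8 in WT against 0.828 ± 0.317 in KO, in CPM (counts of a gene scaled by the TMM-adjusted library total; SD, n = 3). In RNA-seq the same row had 2.81 ± 1.62 and 3.27 ± 1.59 CPM (SD, n = 3), so it does not check the labels of those libraries, and RNA-seq directions are given by label. Total counts per library were 4479182 to 8180286 for RNA-seq and 4069968 to 17859770 for footprints, where KO replicate 3 was lowest. Traj rows took 2732 to 5480 reads per RNA-seq library and 419 to 1667 per footprint library, again lowest in footprint KO replicate 3. The authors named their counts as adjusted, and same-numbered WT and KO libraries deviated from their group means in opposite directions. No SD, SE, FDR, lack of overlap or range without 1 library below therefore need reflect how far mice differ.

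Traj rows differed widely in how many footprints accompanied their RNA. In WT the 9 pseudogene rows held 1266 RNA-seq reads and 63 footprints, and the median ratio of footprint CPM to RNA CPM was 0.0143. The other 51 rows held 11696 RNA-seq reads and 4158 footprints, with a median ratio of 0.166. The same median over all 11854 genes tested in both assays was 0.87, so both kinds of Traj row had fewer footprints per RNA read than the typical gene. Of the 9 pseudogene rows, 6 had a ratio under 0.02, and the highest ratio was that of Traj61, the highest-numbered row, with 39 RNA-seq reads and 23 footprints in WT (0.265). Traj8, a distal pseudogene row, had 281 RNA-seq reads and 4 footprints. Traj54 had 197 and 2.

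A few rows that RefSeq does not list as pseudogenes also lay at the bottom of this range. Traj20 was among the highest Traj rows in RNA, with 27.0, 31.9 and 23.6 CPM in WT, against 33.2, 26.8 and 37.0 CPM in KO, yet 1 footprint in all WT libraries and 1 in all KO libraries. The genotypes overlapped in its RNA level, and the edgeR log2 fold change was 0.25 (SE 0.15, FDR 0.38). Traj29 (147 RNA-seq reads, 2 footprints in WT), Traj25 (232 and 7) and Traj19 (182 and 8) likewise had ratios under 0.02. At the other end stood the middle segment Traj37, with a ratio of 0.798 in WT and 0.798 in KO, and the proximal segment Traj56, with 0.749 and 0.674. Levels of different rows are given in reads that were not divided by length, and whether segment length bears on the ratio was not tested.

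**Figure D1:**
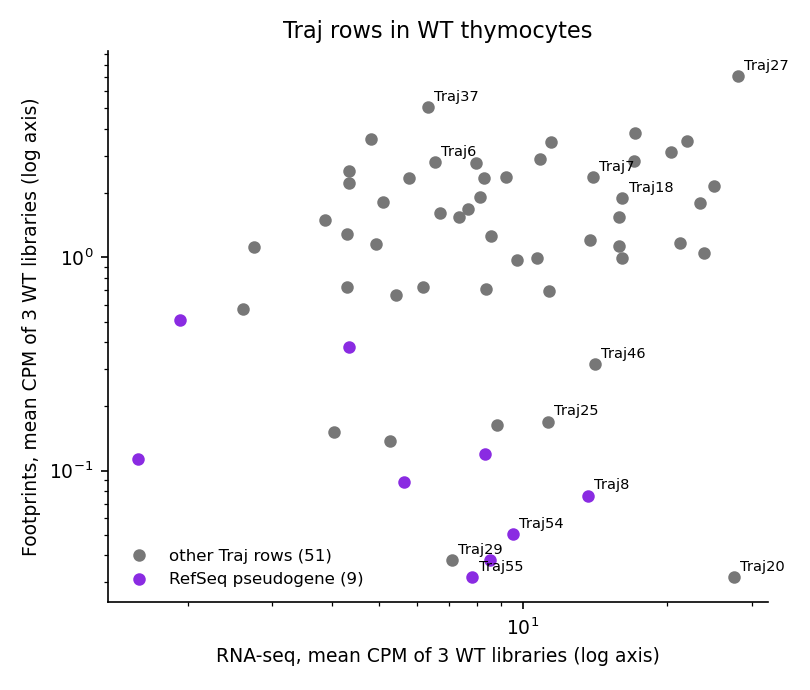
Mean footprint CPM (y axis, log scale) against mean RNA-seq CPM (x axis, log scale) of the 60 Traj rows over 3 WT libraries per assay; each point is a row and purple points are the 9 rows listed as pseudogenes in RefSeq. Most purple points lie at the bottom with Traj29 and Traj20, whose footprints were 2 and 1 reads beside 147 and 570 RNA-seq reads.

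In footprints the distal segments took a smaller part of all Traj reads in KO than in WT. Their share was 26.1%, 26.9% and 23.4% in the WT libraries and 17.4%, 17.0% and 22.0% in the KO libraries, which did not overlap. The means were 25.5% ± 1.81 and 18.8% ± 2.75 (SD, n = 3), a difference of -6.67 percentage points. WT replicate 3 and KO replicate 3 lay closest, and their 95% Wilson intervals, which cover counting error only, overlapped at 20.8% to 26.2% and 18.3% to 26.2%. No p-value is given for a share, since 3 libraries against 3 cannot go below an exact two-sided p of 0.10.

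Since the 3 shares sum to the whole, the middle and proximal segments together took a larger part in KO. Middle segments took 44.9%, 43.7% and 46.7% of Traj footprints in WT and 50.3%, 51.2% and 46.8% in KO, where WT replicate 3 and KO replicate 3 almost met. Proximal segments took 29.0%, 29.4% and 29.8% in WT and 32.3%, 31.8% and 31.3% in KO, a difference of 2.37 points with no overlap. The read-weighted mean segment number was 30.88 ± 0.427 in WT and 32.9 ± 0.685 in KO (SD, n = 3), and the ratio of distal to proximal footprints was 0.867 ± 0.071 and 0.592 ± 0.0955. With the boundary placed between segments 30 and 31, the difference was 4.54 points toward the higher-numbered segments and the genotypes overlapped.

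**Figure D2:**
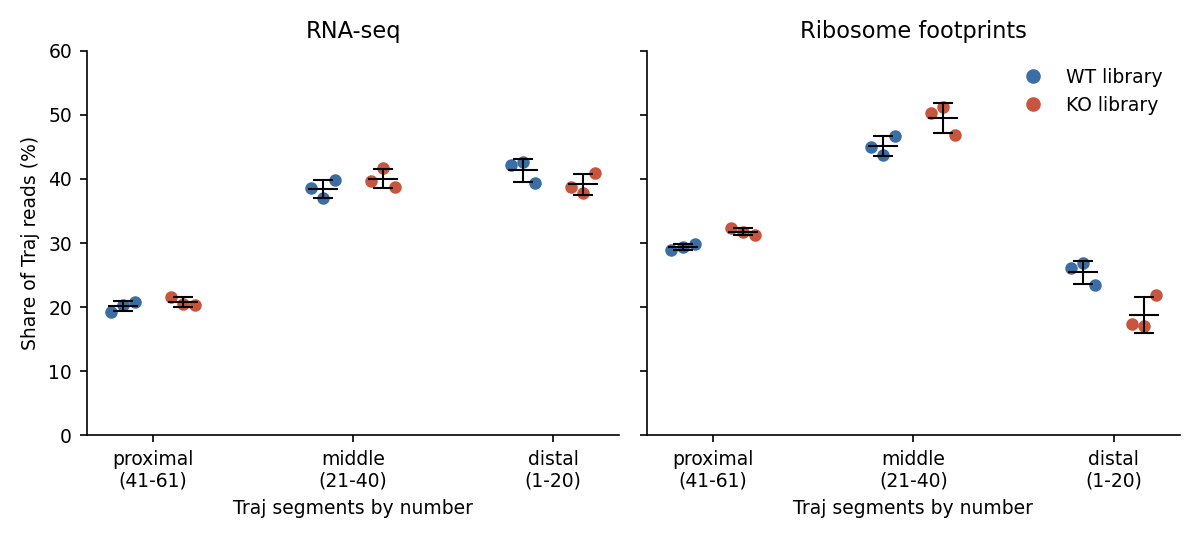
Share of all Traj reads (y axis, percent) in proximal, middle and distal segments (x axis) in RNA-seq (left) and footprints (right); points are libraries, and bars are the mean and SD of 3 libraries. In footprints the KO libraries lie at 17.0% to 22.0% for distal segments, under the WT libraries at 23.4% to 26.9%, whereas in RNA-seq the genotypes overlap in all 3 regions.

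Within the distal region the lowest numbers, farthest from the Trav segments, differed most. Segments 1 to 9 took 12.4%, 12.2% and 11.1% of Traj footprints in WT and 6.69%, 7.08% and 8.59% in KO. Their KO share was 0.625 of the WT share. Segments 11 to 20 took 13.5% ± 1.18 in WT and 11.3% ± 1.81 in KO (SD, n = 3), and the genotypes overlapped. Among the higher-numbered groups of segments, 21 to 30 (22.9% and 25.0%), 41 to 50 (16.0% and 17.2%) and 51 to 61 (13.4% and 14.6%) had every KO library above every WT library, while 31 to 40 (22.3% and 24.5%) overlapped.

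The summed level shows the same order as the shares. All Traj rows together had 91.5 ± 3.51 CPM in WT footprints and 94.0 ± 7.98 CPM in KO footprints (SD, n = 3), which overlapped. Distal rows summed to 23.3 ± 2.25 and 17.8 ± 4.15 CPM, and here KO replicate 3, at 22.6 CPM, lay within the WT range of 20.8 to 24.9 CPM. Middle rows summed to 41.3 ± 1.64 and 46.4 ± 2.14 CPM, and proximal rows to 26.9 ± 0.651 and 29.8 ± 2.06 CPM. In bulk samples, fewer cells that use a segment and less RNA per cell cannot be told apart.

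In RNA-seq the regional shares overlapped between the genotypes with all libraries in. Distal segments took 42.2%, 42.7% and 39.3% of Traj reads in the libraries labelled WT and 38.7%, 37.9% and 41% in those labelled KO, a mean difference of -2.21 points. They did not overlap, with KO lower, without WT replicate 3 (-3.24), without KO replicate 3 (-3.12) or with distal ending at segment 11 (-2.02). The proximal shares were 20.2% ± 0.812 and 20.8% ± 0.752 (SD, n = 3). In summed level, however, proximal rows did not overlap in RNA-seq, at 123.1 to 128.2 CPM in WT and 132.4 to 138.5 CPM in KO. Summed middle and distal rows overlapped. Segments 1 to 9 were the only group of about 10 segments in RNA-seq whose shares did not overlap. They took 15.3%, 15.6% and 14.4% in WT and 12.7%, 12.2% and 13.5% in KO. Their KO share was 0.847 of the WT share in RNA-seq, beside 0.625 in footprints. Whether these 2 ratios differ was not tested.

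**Figure D3:**
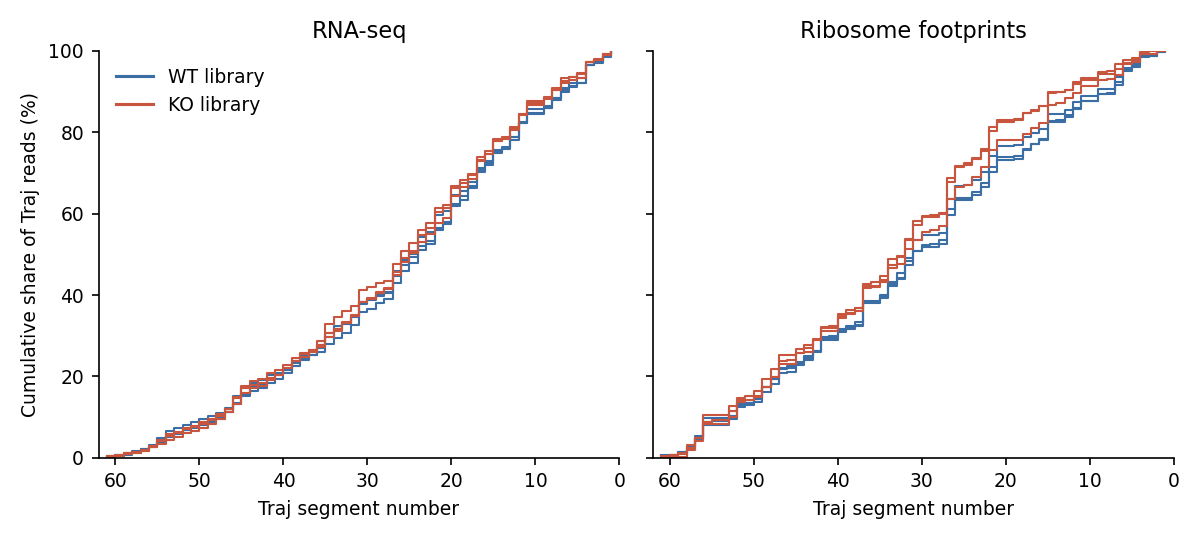
Cumulative share of Traj reads (y axis, percent) from segment 61 down to segment 1 (x axis, segment number) in each of the 6 RNA-seq libraries (left) and 6 footprint libraries (right). In footprints the KO curves run above the WT curves over the lower-numbered segments, where distal segments hold 17.0% to 22.0% of KO and 23.4% to 26.9% of WT reads.

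Row by row, mean footprint CPM was lower in KO for 15 of 19 distal rows, 2 of 20 middle rows and 10 of 21 proximal rows. By the edgeR log2 fold change without a filter on low counts, 15 of 19 distal, 3 of 20 middle and 9 of 21 proximal rows were lower. By that measure 15839 of all 29866 genes with a footprint read were lower. The 4 distal rows that were not lower in mean CPM were Traj19, Traj16, Traj14 and Traj8, each at 1.02 CPM or under in KO. The 2 middle rows that were lower in mean CPM were Traj33 and Traj21. The median log2 fold change without a filter on low counts was -0.52 over the distal rows, 0.17 over the middle rows and 0.13 over the proximal rows, beside -0.03 over all genes with a read. Proximal rows were therefore mixed in direction, and their larger share came from some segments only.

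Single Traj rows were not separated by genotype more often than genes in general, which were not matched to them for read depth. In footprints, all KO libraries lay below all WT libraries for 4 of 19 distal rows (Traj9, Traj7, Traj5 and Traj2), 0 of 20 middle rows and 3 of 21 proximal rows, beside 19.6% of all genes tested. All KO libraries lay above for 0 distal, 4 middle (Traj40, Traj34, Traj25 and Traj22) and 3 proximal rows (Traj53, Traj48 and Traj47), beside 18.5% of all genes tested. Of the 38 Traj rows tested in footprints, KO lay below WT for 4 and above for 6. In RNA-seq, KO lay above WT for 7 of 60 rows beside 15.5% of genes, and below for 7 of 60 beside 15.4%. Traj5 and Traj2 were the distal rows below WT in both assays.

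The edgeR quasi-likelihood test was fitted over all genes in each assay, and rows with a false discovery rate (FDR) under 0.05 were called. In footprints 38 Traj rows passed the filter on low counts (12 proximal, 14 middle, 12 distal, no pseudogene row); a row can pass through the genotype in which it is high, so these 38 do not stand for all 60. Of the 38, 1 was called higher and 1 lower in KO, beside 9.25% and 8.34% of the 13509 genes tested (17.6% in either direction). In RNA-seq all 60 rows were tested and 0 were called, beside 6.91% of 13652 genes. DESeq2 also called 0, and 10 of the 60 had an unadjusted edgeR p under 0.05, or 16.7% beside 23.8% of all genes. The Traj rows were thus called no more often than other genes in either assay. Those genes were not matched to the Traj rows for read depth, and rows with few reads are harder to call. A footprint library held 419 to 1667 reads over all Traj rows.

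**Figure D4:**
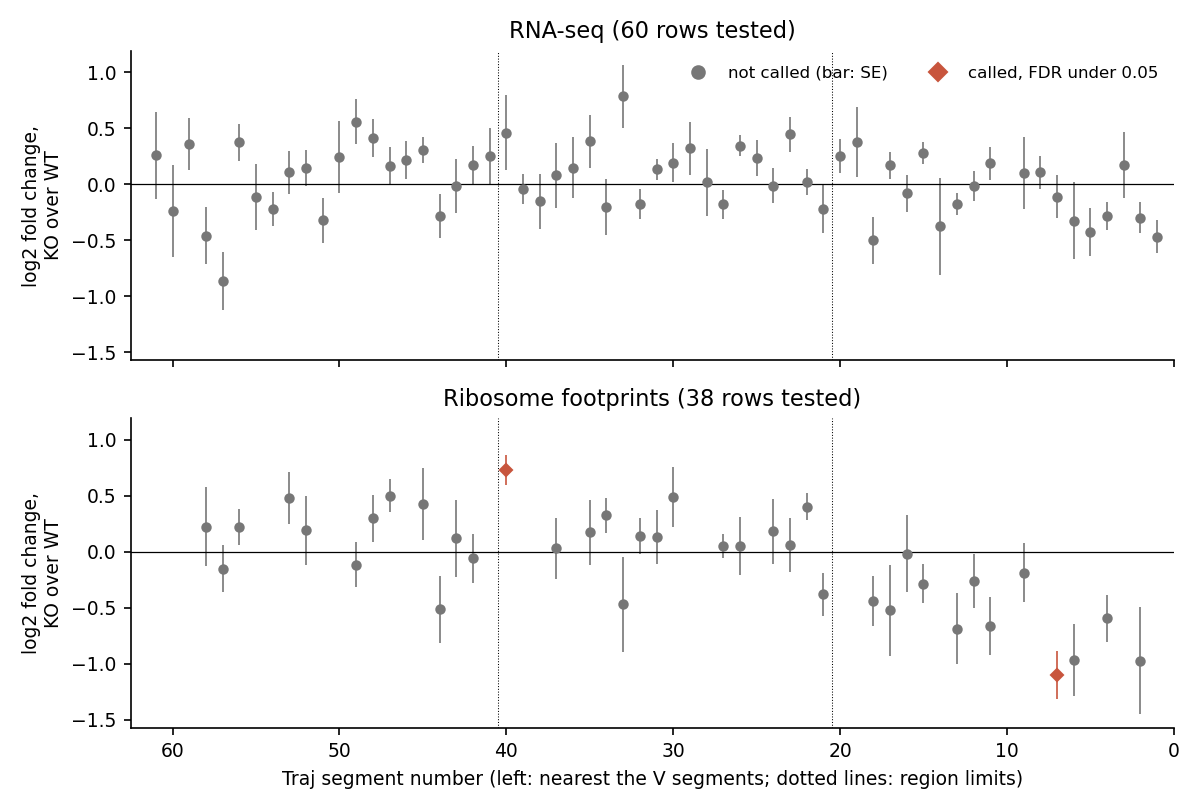
Log2 fold change of KO over WT (y axis; bars are SE) by Traj segment number (x axis, proximal at left; dotted lines part the regions) for the 60 rows tested in RNA-seq (top) and the 38 tested in footprints (bottom). The called rows are Traj40 at 0.73 and Traj7 at -1.10 in footprints, and the 22 rows with too few footprints to be tested are not drawn.

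Traj7 (ENSMUSG00000076921.1), a distal segment, was the called row that fell. Its footprints were at 2.00, 2.57 and 2.56 CPM in WT, against 1.39, 0.909 and 0.982 CPM in KO. All KO libraries lay under all WT libraries, and the log2 fold change was -1.10 (SE 0.22, edgeR FDR 0.0187). The row held 108 footprints in WT and 33 in KO, and its part of all Traj footprints was 2.61% ± 0.442 in WT and 1.18% ± 0.358 in KO (SD, n = 3). In RNA-seq it averaged 14 ± 2.88 and 13 ± 2.41 CPM (SD, n = 3), with overlap (edgeR FDR 0.779, log2 fold change -0.11, SE 0.19). The footprint call was lost under DESeq2 (adjusted p 0.147) and, in edgeR, without WT replicate 2 (FDR 0.0625), WT replicate 3 (FDR 0.0532) or KO replicate 2 (FDR 0.096).

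Traj40 (ENSMUSG00000076890.1), the highest-numbered middle segment, was the called row that rose. Its footprints were at 1.77, 1.68 and 1.61 CPM in WT, against 2.69, 2.79 and 3.19 CPM in KO, with a wide gap between the genotypes. The log2 fold change was 0.73 (SE 0.14, edgeR FDR 0.016), from 78 footprints in WT and 85 in the smaller KO libraries. RNA-seq gave 10.8, 7.39 and 4.82 CPM in WT, against 7.17, 10.7 and 13.2 CPM in KO, which overlapped (edgeR FDR 0.462, log2 fold change 0.46, SE 0.34). This call too was lost under DESeq2 (adjusted p 0.262) and, in edgeR, without WT replicate 2 (FDR 0.0523) or KO replicate 2 (FDR 0.0792).

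**Figure D5:**
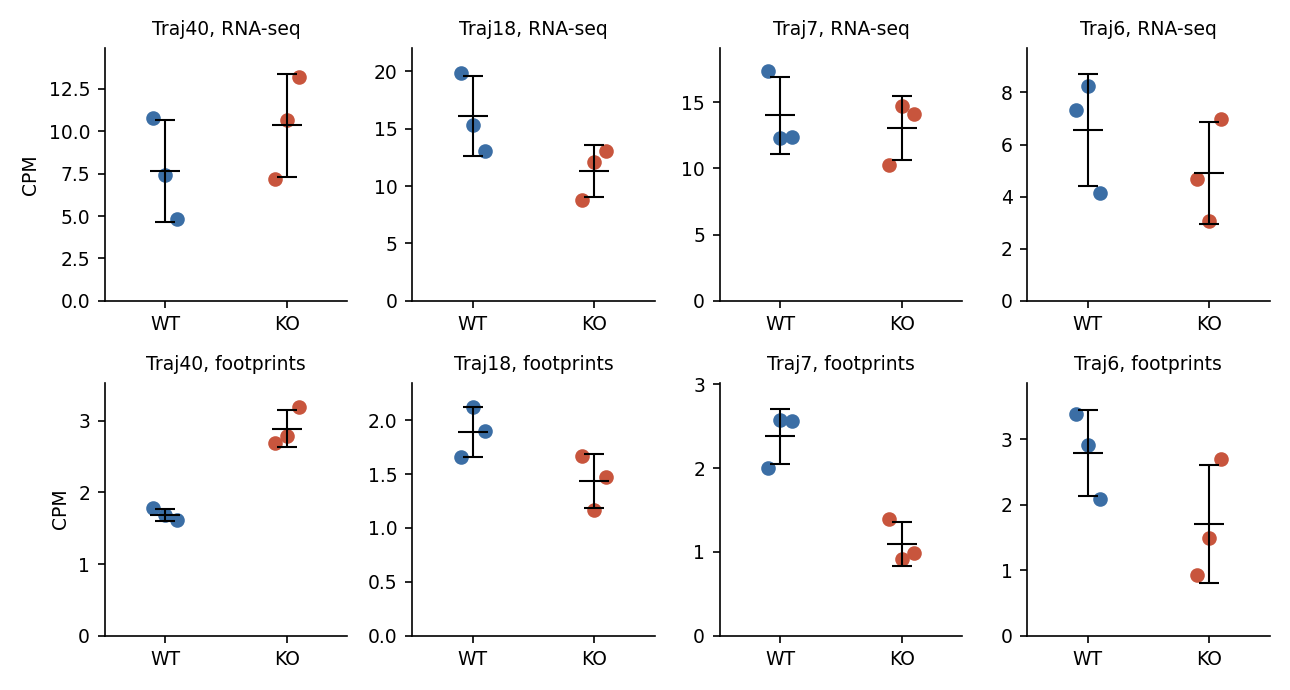
CPM (y axis) of Traj40, Traj18, Traj7 and Traj6 in each library of the labelled genotype (x axis) in RNA-seq (top row) and footprints (bottom row); points are libraries, and bars are the mean and SD of 3 libraries. Footprints of Traj40 and Traj7 are apart between WT and KO, at 1.61 to 1.77 against 2.69 to 3.19 CPM and at 2.00 to 2.57 against 0.909 to 1.39 CPM, whereas their RNA overlaps.

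The other distal segments with the largest differences did not pass the test. Traj6 had 3.38, 2.91 and 2.08 CPM in WT footprints and 0.928, 1.49 and 2.7 CPM in KO, where KO replicate 3 lay inside the WT range (edgeR FDR 0.0888, log2 fold change -0.97, SE 0.32, or 0.0312 with no filter on low counts). Traj2 had 1.09, 0.895 and 0.948 CPM in WT, against 0.0928, 0.715 and 0.736 CPM in KO (edgeR FDR 0.212, log2 fold change -0.97, SE 0.47). Traj4, among the 5 highest Traj rows in RNA at 25.0 ± 2.78 CPM in WT, against 20.4 ± 2.67 CPM in KO (SD, n = 3), was not called in footprints (edgeR FDR 0.102, log2 fold change -0.59, SE 0.21). Traj1, a pseudogene row and the most distal of all, had 5 footprints in WT and 0 in KO, which allows up to 0.0987 CPM of the reads in genes over the KO libraries. Its RNA was at 9.38, 8.37 and 7.30 CPM in WT, against 5.27, 5.92 and 6.74 CPM in KO, which did not overlap (edgeR FDR 0.114, log2 fold change -0.47, SE 0.15). Without Traj6 and Traj7, the rows whose share fell most, the distal share of footprints still differed by -4.68 points without overlap, and the proximal share by 1.58.

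Among middle and proximal segments, Traj47 and Traj22 came next after Traj40 in how far KO footprints lay above WT relative to their error. Traj47 had 2.52, 2.24 and 2.37 CPM in WT, against 3.15, 3.51 and 3.44 CPM in KO (edgeR FDR 0.0591, log2 fold change 0.50, SE 0.14). Traj22 had 3.72, 3.25 and 3.6 CPM in WT, against 4.36, 4.94 and 4.42 CPM in KO (edgeR FDR 0.0675, log2 fold change 0.40, SE 0.12). Neither passed the test, although the genotypes did not overlap in either. Traj30 had 1.16 ± 0.287 and 1.68 ± 0.416 CPM (SD, n = 3, edgeR FDR 0.265, log2 fold change 0.49, SE 0.27).

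The segments with the most footprints overlapped between the genotypes, apart from Traj22. Traj27, the highest, had 7.38, 6.43 and 7.49 CPM in WT, against 6.87, 7.93 and 6.63 CPM in KO. Traj37 had 5.05 ± 0.291 and 5.34 ± 0.494 CPM, Traj56 3.61 ± 0.419 and 4.22 ± 0.484 CPM, and Traj15 3.85 ± 0.542 and 3.46 ± 0.831 CPM (SD, n = 3). None of these 4 was called (edgeR FDR 0.307 to 0.957). In RNA the 5 rows highest over both genotypes were Traj20 and Traj4, given above, and Traj27 (28.0 ± 3.24 and 25.0 ± 3.21 CPM), Traj17 (23.9 ± 2.78 and 26.6 ± 2.89 CPM) and Traj12 (23.3 ± 3.07 and 23.1 ± 3.09 CPM; SD, n = 3), so that 4 of these 5 were distal while the highest footprint rows came from all regions.

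In RNA-seq the largest differences lay elsewhere than in footprints. Traj33 had 8.11, 7.81 and 4.27 CPM in WT, against 9.51, 9.71 and 14.6 CPM in KO, which did not overlap (edgeR FDR 0.156, log2 fold change 0.78, SE 0.28). Traj49 had 4.34 ± 0.924 and 6.40 ± 1.11 CPM (SD, n = 3; edgeR FDR 0.156, log2 fold change 0.56). Traj57, a proximal segment, had 4.29, 3.49 and 5.23 CPM in WT, against 2.49, 3.31 and 1.75 CPM in KO (edgeR FDR 0.106, log2 fold change -0.86, SE 0.26). The 2 highest-numbered rows, Traj61 and Traj60, both pseudogenes, had 1.92 ± 0.815 and 1.57 ± 0.632 CPM in WT, against 2.30 ± 0.854 and 1.30 ± 0.518 CPM in KO (SD, n = 3) and overlapped.

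Whether footprints changed more or less than RNA was read from the interaction of assay and genotype. It called 0 of the 38 Traj rows tested (edgeR FDR under 0.05), beside 0.211% of 11854 genes, and 6 of the 38 had an unadjusted p under 0.05, or 15.8%, beside 1660 of all 11854 genes (14%); DESeq2 was not run for this comparison. For Traj7 the footprint change exceeded the RNA change by -0.99 (SE 0.35, edgeR FDR 0.239) on the log2 scale. For Traj33 it was -1.26 (SE 0.54, edgeR FDR 0.313), and for Traj40 0.26 (SE 0.42, edgeR FDR 0.834). No Traj row thus differed between the assays in its response past the threshold.

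Traj18 and Traj33 are the joining segments of the invariant receptors of NKT cells and of MAIT cells. Traj18 had 19.9, 15.3 and 13.1 CPM in WT RNA and 8.78, 12.1 and 13.1 CPM in KO RNA, and 1.66, 2.13 and 1.90 CPM in WT footprints and 1.67, 1.17 and 1.47 CPM in KO footprints. The log2 fold changes were -0.50 (SE 0.21, edgeR FDR 0.207) in RNA and -0.44 (SE 0.22, edgeR FDR 0.229) in footprints, so the row was not called in either assay. Traj33 footprints were at 2.00, 1.06 and 1.80 CPM in WT, against 0.557, 1.62 and 0.982 CPM in KO (edgeR FDR 0.495, log2 fold change -0.47, SE 0.42), opposite in sign to its RNA. Zbtb16, which encodes the transcription factor PLZF of NKT and MAIT cells, fell in RNA (edgeR FDR 0.0443, log2 fold change -1.71, SE 0.37) and in footprints (-1.55, SE 0.38, edgeR FDR 0.0366). Trav11 and Trav11d, the partners of Traj18, had 0 reads counted in each of the 12 libraries; over the WT footprint libraries this allows up to 0.0654 CPM of the reads in genes. Reads that align to several places were set apart in the counting. Trav1, the partner of Traj33, had 5 ± 0.827 and 3.89 ± 1.12 CPM in footprints (SD, n = 3; edgeR FDR 0.128).

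Genes that flank the Traj segments were read beside them. Trac, the constant region to which every Traj segment is spliced, had 683 ± 62.7 CPM in WT, against 733 ± 65.2 CPM in KO footprints (SD, n = 3; edgeR FDR 0.496, log2 fold change 0.10), and 267 ± 23.3 and 282 ± 21.7 CPM in RNA (0.08, edgeR FDR 0.629). Of 10 locus neighbours, 0 of the 7 tested were called in RNA (beside 6.91% of all genes) and 2 of the 6 tested rose in footprints (beside 9.25%). These were Dad1, the gene just past Trac that encodes a subunit of the oligosaccharyltransferase (edgeR FDR 0.00667, log2 fold change 0.26, SE 0.04), and Abhd4, a lipase gene (0.55, SE 0.13, edgeR FDR 0.0362). The median log2 fold change of the neighbours was 0.18 in footprints, beside -0.01 over all genes tested.

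Of 16 genes of recombination and end joining, 1 rose and 0 fell in RNA (beside 3.48% and 3.43% of all genes), while 1 rose and 2 fell in footprints (beside 9.25% and 8.34%). Rag1, the catalytic subunit of the recombinase, fell in footprints (9951 ± 360.7 CPM in WT, 8068 ± 291.4 in KO; SD, n = 3; edgeR FDR 0.00866, log2 fold change -0.30, SE 0.05), and had a log2 fold change of -0.32 in RNA that was not called (edgeR FDR 0.0993). Hmgb2, a DNA-bending cofactor of RAG, fell in footprints (-0.37, SE 0.07, edgeR FDR 0.0158), and Dclre1c (Artemis, which opens hairpin ends) rose (0.25, SE 0.03, edgeR FDR 0.00546). Xrcc4, of the ligase complex, rose in RNA (0.38, SE 0.06, edgeR FDR 0.019). Rag2, the other subunit of the recombinase, was not called (edgeR FDR 0.41 in RNA and 0.847 in footprints).

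Of 12 genes that govern accessibility of the locus or survival at the double-positive stage, 1 rose and 0 fell in footprints, beside 9.25% and 8.34% of all genes tested. It was Tcf12, encoding HEB (edgeR FDR 0.0288, log2 fold change 0.14, SE 0.03). In RNA 1 of the 12 rose and 1 fell, beside 3.48% and 3.43% of all genes tested. The gene that fell was Tcf7, encoding TCF-1 (edgeR FDR 0.0477, log2 fold change -0.26, SE 0.06). Bcl2l1 was not called, with log2 fold changes of -0.13 in RNA (edgeR FDR 0.2) and -0.20 in footprints (edgeR FDR 0.0708).

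Cell type markers moved with genotype beside the Traj shares. The summed level of 8 double-positive thymocyte markers, Rag1 the highest among them, was 17585 to 18578 CPM in WT footprints and 16831 to 17889 CPM in KO, which overlapped. The lowest of the 8, Ptcra, averaged 43.3 and 33.6 CPM, so the libraries carried the markers of the stage that joins Traj segments. The sum covers changes in both directions. Of these 8, 1 rose and 2 fell in footprints, beside 9.25% and 8.34% of all genes. Cd4 rose (1953 ± 123 CPM in WT, 2902 ± 174 in KO; SD, n = 3; edgeR FDR 0.00335), and Rag1, given above, and Ptcra (log2 fold change -0.37, edgeR FDR 0.0293) fell. The 4 mature T cell markers summed to 267 to 274 CPM in WT footprints and 237 to 243 CPM in KO. In RNA they summed to 148 to 159 and 109 to 117 CPM, and the genotypes did not overlap in either assay. Of the 4, 2 fell in RNA (edgeR, beside 3.43% of all genes) and 0 were called lower in footprints (beside 8.34%). The 4 NKT markers summed to 34.3 to 39.0 and 19.7 to 23.3 CPM in footprints, with 3 of 4 falling, and the 5 thymic epithelium markers to 75.5 to 82.3 and 59.8 to 70.5 CPM, with 1 of 5 falling, beside 8.34% of all genes. Summed gamma-delta, myeloid and erythroid markers overlapped in footprints, at 117 to 173, 128.5 to 169 and 31 to 68.2 CPM over all 6 libraries. The 4 B cell markers barely overlapped, at 43.0 to 56.3 CPM in WT footprints and 56.0 to 73.8 CPM in KO. Of these 4, 1 rose in footprints, beside 9.25% of all genes. It was Cd79b (edgeR FDR 0.00416, log2 fold change 0.48, SE 0.06). In RNA the summed NKT markers were lower in every KO library than in every WT library (35.4 to 50.5 and 15.5 to 24.6 CPM). So were the summed erythroid (70.4 to 84.4 and 43.1 to 53.9 CPM) and thymic epithelium markers (18.9 to 22.2 and 14.2 to 17.3 CPM). Singly, Hba-a1, Psmb11 and Foxn1 overlapped between the genotypes in RNA, while the other markers of these lists did not. Of those tested, edgeR called 2 of 2 NKT, 1 of 4 erythroid and 1 of 4 epithelium markers lower, beside 3.43% of all genes. No defining marker was at 0 in every library of a group. The part of these markers in the Traj shares was not tested.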

How the data were processed

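Each assay came as a table of whole-number counts (a row per Ensembl ID) that the authors deposited under the name of adjusted counts, per the labels; the kind of adjustment is not given in the sources at hand. The submitters' processing notes name FastQC, Bowtie2 2.5.1, STAR 2.7.10a, HTSeq 2.0.3 and DESeq2 1.40.2 without their roles. Not given in the sources used here are genome build, annotation, use of strand and the alignment of reads across a V to J joint. Per the row names of the deposited tables, reads in no gene, in several genes or with several alignments were set apart: in RNA-seq 27.0% to 28.5% of reads lay in genes, in footprints 72.3% to 73.1%. The authors' comparison tables were not used.

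Each assay was fitted in edgeR 4.0.16 (R 4.3.3) with TMM, filterByExpr (minimum count 10), the quasi-likelihood test of genotype and Benjamini-Hochberg adjustment over all tested genes. Genes with an FDR under 0.05 were called. The interaction was fitted over 12 libraries. An SE is the log2 fold change divided by the square root of the F value that the test's p implies. Shares are reads of a region over reads of all Traj rows. The fits were also run on simulated independent libraries. Those lack the opposite deviations of same-numbered libraries seen here, so that run does not test the calls in these data. Within each group libraries differed beyond sampling error, and each counts as 1 replicate; nothing says that they came from separate mice beyond the stated number of mice, so p-values measure only the spread between these libraries. RefSeq (GRCm38.p6) gave order, pseudogene status and microRNA sequences; no Traj coordinates or lengths were used.

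Members and lists were chosen with earlier results of these data known. Named rows were the 5 highest per assay, called rows, the 2 highest and 2 lowest numbers, Traj18, Traj33 and, in each assay, the 3 tested rows with the largest rise and the 3 with the largest fall; any other row was chosen with its values in view. The alternatives tried were DESeq2 1.42.0, size factors by RLE, no filter, a replicate block, other region limits, rows left out and libraries left out. The values of 1 gene of the fixed lists are not reported here.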

Additional observations from a re-analysis of the deposited data

How the results depend on the processing

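Depth limits single segments: a footprint library holds 419 to 1667 Traj reads. Among called genes, 943 in RNA-seq became 539 under DESeq2, 110 with the replicate number as a block (0.806% of genes) and 215 to 323 without 1 library; 2376 in footprints became 1253, 408 (3.02%) and 1035 to 1554. Traj rows called in footprints went from 2 to 0 under DESeq2, 0 with the block (FDR 0.288 for Traj40, 0.2 for Traj7) and 0 to 2 without 1 library. Interaction calls went from 25 to 2 with the block, 272 with no filter on low counts and 6 to 24 without 1 library, and with no filter 1 Traj row (Traj33) was called. With the block every list gene named as called lost its call, except Mir181a-1 and, in footprints, the B cell marker Cd79b (FDR 0.0466) and the double-positive marker Cd4 (FDR 0.0121). Of the other marker calls counted, only Il2rb in footprints (FDR 0.0383) was kept. The cause was not tested.

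The block rests on replicate numbers that do not pair mice in the labels: deviations from the group means correlated at -0.984 to -0.958 between same-numbered RNA-seq libraries over 9078 genes and at -0.99 in footprints over 8155 genes, against 0.214 to 0.697 and 0.381 to 0.632 between other numbers.

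The footprint proximal share moved from 2.37 points to 4.54 with proximal from segment 31 (overlapping), 1.23 from segment 51 and 1.58 without Traj6 and Traj7 (chosen after seeing the data), with 2.13 to 2.63 without 1 library. The RNA-seq proximal share moved from 0.62 to 1.92 and, reversed, -0.584 with proximal from segments 31 and 51, with 0.175 to 0.97 without 1 library. The distal share stayed at -8.25 to -5.77 points in footprints without 1 library, with no overlap, and at -3.24 to -1.55 in RNA-seq, where the genotypes overlapped without some libraries and not without others. Log2 fold changes near 0 changed sign without 1 library: in RNA-seq Traj60 (-0.63 to 0.0775), Traj37 (-0.096 to 0.34), Traj22 (-0.0483 to 0.114), Traj12 (-0.0775 to 0.0965) and Traj7 (-0.205 to 0.0559), and in footprints Traj37 (-0.0057 to 0.089) and Traj27 (-0.0612 to 0.107). The share per base was not run because lengths of the authors' annotation were not used.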
